A study of Mus musculus with 6 samples.

Results

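The autophagy genes described here were the 36 rows of the deposited gene table whose symbol belongs to the core autophagy machinery, of 54532 genes in all. They encode the ULK1 kinase complex, the class III PI3 kinase complexes, the ATG9, ATG2 and WIPI proteins, the conjugation enzymes, the ATG4 proteases, the LC3 and GABARAP proteins, 3 cargo receptors, LAMP1, LAMP2 and the transcription factor TFEB. All 36 were among the 18035 genes with a mean of at least 0.1 FPKM (fragments per kilobase of gene, adjusted for library size), which was the limit for testing. They were measured by RNA sequencing in the hearts of mice of 12 weeks, 3 of them homozygous for a knockout of Mc4r (Mc4r KO) and 3 of them wild type (WT), with 1 library per mouse. Mc4r encodes the melanocortin-4 receptor, best known for restraining food intake from the hypothalamus. Both groups were littermates from matings between heterozygous carriers on the C57B/6/N background, were fed standard chow and received no treatment. The knockout was a purchased line and is not limited to the heart in any source used here. The labels name the tissue as heart in the tissue field and as muscle in the sample titles, while the paper's discussion names it as left ventricle. The comparison asks whether the transcripts of this machinery differ between Mc4r KO and WT hearts at an age that the study places before a loss of cardiac function.

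Autophagy encloses cytoplasm, protein aggregates and damaged organelles in a newly formed membrane sac, the autophagosome, and delivers them to the lysosome for breakdown. The ULK1 kinase complex starts the process, a lipid kinase complex around VPS34 and Beclin 1 marks the membrane, ATG9 and ATG2 supply it with lipid, and a pair of ubiquitin-like conjugation systems fixes LC3 and GABARAP proteins to it. In heart muscle, whose cells are rarely replaced, autophagy removes worn mitochondria and proteins, and loss of LAMP2 causes a cardiomyopathy with stored autophagic vacuoles in people and in mice. The transcript levels below do not measure the flow of material through this pathway.

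Between 14691076 and 16047003 reads fell on genes in the 6 libraries, and between 74 and 8273 on each autophagy gene in each library. All 8 cardiomyocyte markers were detected in every library, and their summed level was 15820 to 16760 FPKM in WT and 19355 to 21079 FPKM in Mc4r KO hearts. Mc4r itself had 2 reads in WT replicate 3 and 0 in the other 5 libraries, under the floor of 3 reads, so the genotype could not be checked on it. WT replicate 3 stood apart from the other WT libraries. Across 11297 genes with a mean of at least 1 FPKM it correlated at 0.946 and 0.952 with them and at 0.951 to 0.962 with the Mc4r KO libraries, which correlated at 0.972 to 0.975 with each other. The same was seen over the 36 autophagy genes, where the root mean square log2 difference of this library was 0.290 and 0.295 from the other WT libraries and 0.192 to 0.238 from the Mc4r KO libraries. In 32 of the 36 genes its value lay from the other WT libraries toward the Mc4r KO mean. Results that depend on this library are therefore given with and without it.

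On the deposited scale, the log2 fold changes between Mc4r KO and WT hearts were under 0.25 in size in 25 of the 36 autophagy genes. The other genes came from several of the groups of proteins listed above, without taking in all the genes of any group. The largest differences were a higher level of Map1lc3a, which encodes LC3A, at 433 ± 15.4 FPKM in Mc4r KO and 226 ± 57.4 FPKM in WT hearts (mean ± SD, n = 3 each), and of the protease gene Atg4d, at 8.88 ± 1.07 and 5.04 ± 1.42 FPKM. Lamp2 and Rb1cc1 were lower in every Mc4r KO library than in any WT library. None of the 36 genes met the call used throughout, an adjusted p under 0.05 together with an absolute log2 fold change above 0.75 in limma, while 0.46% of all genes tested met it. With limma voom on the recovered reads, 2 of the 36 met it, Map1lc3a and Atg4d, beside 1.76% of all genes. At an unadjusted p under 0.05 there were 7 genes with a higher level in Mc4r KO hearts (Map1lc3a, Atg13, Atg4d, Atg101, Gabarapl2, Tfeb and Atg2a), against a background of 12% of all genes, and 2 with a lower level (Lamp2 and Rb1cc1), against 8.83%. Among the genes with a mean of at least 1 FPKM, as all 36 have, these backgrounds were 17.1% and 10.8%, and in both directions together 27.8% of such genes had an unadjusted p under 0.05, beside 25% of the 36. The groups did not overlap in 12 genes, 9 higher and 3 lower in every Mc4r KO library, where the backgrounds were 14.1% and 12.4% of all genes, or 19.6% and 13.9% of those with a mean of at least 1 FPKM. The library scaling moved this split, since dividing by the FPKM outside the mitochondrial chromosome gave 3 genes higher and 6 lower at an unadjusted p under 0.05, beside 4.93% and 18.1% of all genes. Without WT replicate 3, 2 genes were called (again Map1lc3a and Atg4d) where 4.04% of all genes were. In that fit 24 genes had groups that did not overlap, 10 higher and 14 lower, beside 22.5% and 22.8% of all genes. Leaving out a library can only keep or raise such a number, and this library lay toward the Mc4r KO mean in 32 of the 36 genes. The shares among genes with a mean of at least 1 FPKM were not taken for this fit.

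**Figure D1:**
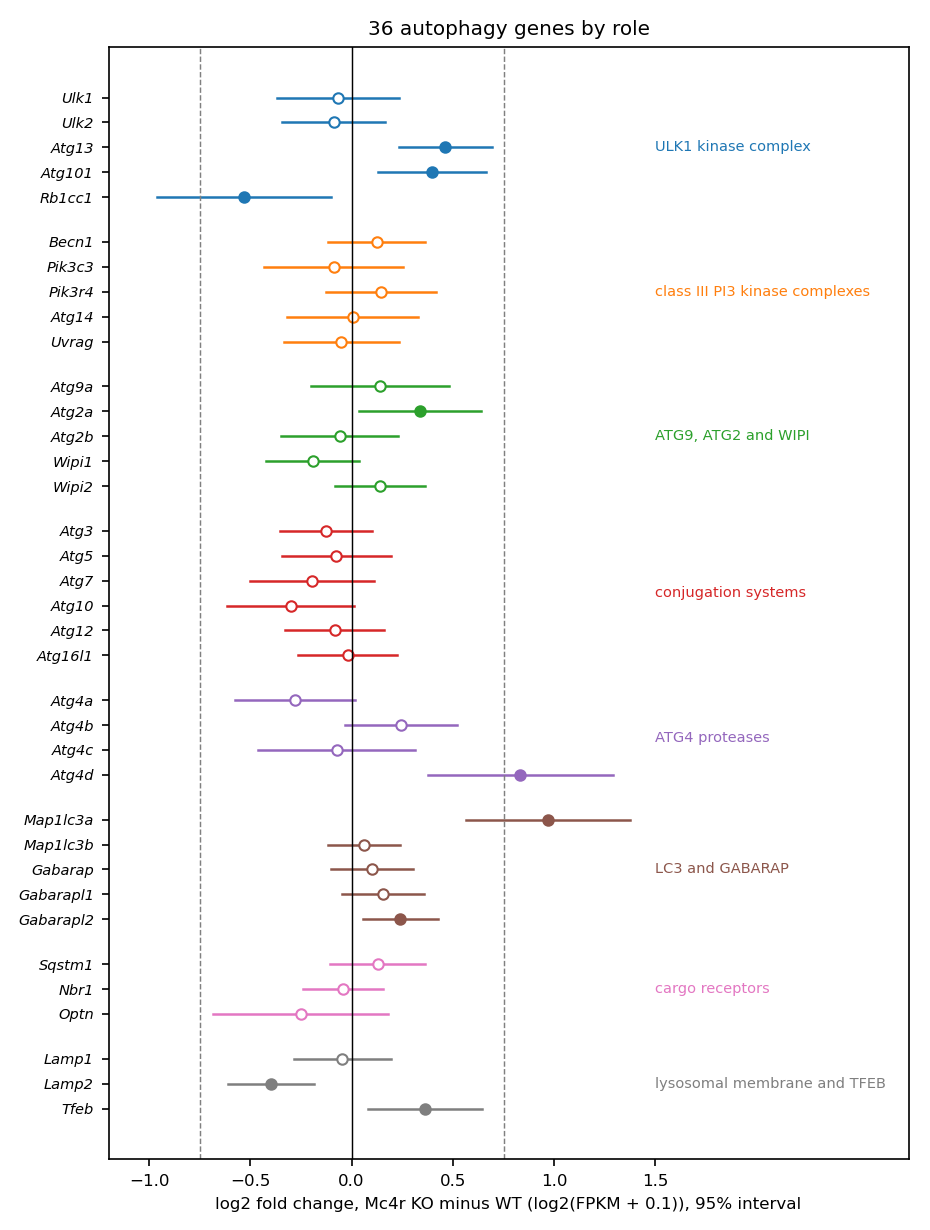
Log2 fold change between Mc4r KO and WT hearts on the log2(FPKM + 0.1) scale for each of the 36 autophagy genes, grouped and coloured by role, with its 95% interval from limma over 3 libraries per group. Filled points have an unadjusted p under 0.05 and dashed lines mark the fold threshold of 0.75 in either direction. Map1lc3a and Atg4d lie past it, and 25 of the 36 genes lie within 0.25 of zero.

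As a set the 36 genes had small log2 fold changes, which were positive in 17 and negative in 19, with a median of -0.032, beside -0.011 over all genes tested. The median absolute log2 fold change was 0.139 for the autophagy genes, 0.258 for all genes tested and 0.215 for the genes with a mean of at least 1 FPKM. In 33 of the 36 the 95% interval stayed within 0.75 in either direction. Over the 27 genes with a p of at least 0.05 the interval bounds ran from -0.68 to 0.52, so these data do not show that such genes were equal, only that larger differences fall outside the intervals. The 36 genes together took 0.388% to 0.411% of the reads on genes outside the mitochondrial chromosome, with overlapping ranges in the 2 groups. Their summed FPKM, of which Map1lc3a is the largest part, was 806, 854 and 881 in WT and 1033, 1079 and 1085 in Mc4r KO hearts, without overlap. In bulk tissue such as this, fewer cells of a type and less RNA per cell cannot be told apart.

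The ULK1 complex, which receives the signals of nutrient state and starts autophagosome formation, had 3 subunit genes whose groups did not overlap, 2 with higher and 1 with lower levels in Mc4r KO hearts, and none passed the call. Atg13 (ENSMUSG00000027244), whose product bridges the kinase to the rest of the complex, was at 10.1, 10.7 and 10.8 FPKM in WT replicates 1 to 3 and at 13.7, 13.8 and 16.4 FPKM in Mc4r KO replicates 1 to 3. All Mc4r KO values lay above all WT values, and the WT values were close together, so WT replicate 3 did not stand apart here. The means were 14.6 ± 1.51 and 10.6 ± 0.36 FPKM, a log2 fold change of 0.46 (SE 0.098, adjusted p = 0.0819). Atg101, which stabilises ATG13, was at 7.33, 8.41 and 9.34 FPKM in WT and at 10.4, 10.9 and 11.7 FPKM in Mc4r KO hearts, again without overlap (log2 fold change 0.40, SE 0.11, adjusted p = 0.123).

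Rb1cc1 (ENSMUSG00000025907), which encodes the scaffold protein FIP200 of the same complex, went the other way. Its level was 6.76, 6.16 and 4.15 FPKM in WT and 3.72, 4.06 and 3.71 FPKM in Mc4r KO hearts. WT replicate 3 lay next to the Mc4r KO values and well below the other WT libraries, yet the groups did not overlap. The means of 3.83 ± 0.197 and 5.69 ± 1.37 FPKM gave a log2 fold change of -0.53 (SE 0.18, adjusted p = 0.169). Ulk1 and Ulk2, which encode the kinases themselves, were at 14.4 and 15.8 FPKM in Mc4r KO and at 15.0 and 16.9 FPKM in WT hearts, with log2 fold changes of -0.07 and -0.09 and adjusted p-values of 0.805 and 0.680. The ratio of Atg13 to Rb1cc1, which does not depend on the scaling between libraries, was 1.5, 1.74 and 2.60 in WT and 3.70, 3.40 and 4.41 in Mc4r KO hearts. With Atg13 higher and Rb1cc1 lower in every Mc4r KO library, this ratio had to be higher in each of them, so it is given as a description. Without WT replicate 3 the adjusted p was 0.0424 for Atg13, 0.0375 for Atg101 and 0.0149 for Rb1cc1, at log2 fold changes of 0.48, 0.48 and -0.74. Over all 16 alternatives these adjusted p-values ran from 0.0370 to 0.229, from 0.0375 to 0.311 and from 0.0149 to 0.391, and none of the 3 genes was called in any of them.

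**Figure D2:**
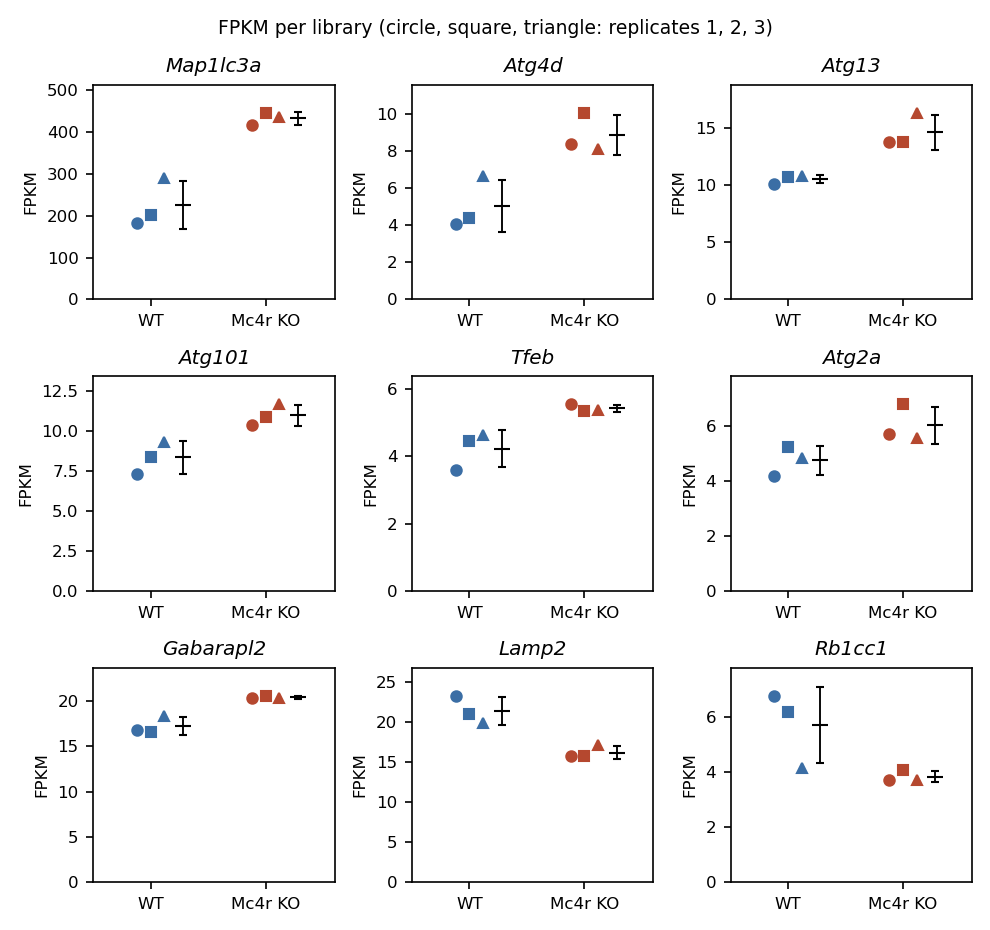
FPKM of the 9 autophagy genes with an unadjusted p under 0.05 in each of the 6 libraries, with WT in blue and Mc4r KO in red. The shapes mark replicates 1, 2 and 3, the bars mark the mean ± SD of each group, and each vertical axis starts at 0. In all 9 genes the groups do not overlap, and in all but Atg2a the WT replicate 3 triangle is the WT value nearest the Mc4r KO values.

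The genes of the class III PI3 kinase complexes, which make the lipid mark PI3P on the forming membrane, had the narrowest range of log2 fold changes of the 8 roles. None of the 5 had an unadjusted p under 0.05, and all 5 overlapped. Their log2 fold changes ran from -0.09 to 0.15, with a median of 0.0054. Becn1, which encodes Beclin 1, was at 4.65, 4.63 and 4.72 FPKM in WT and at 5.22, 5.50 and 4.61 FPKM in Mc4r KO hearts. Pik3c3, which encodes the lipid kinase VPS34, averaged 4.54 ± 0.416 FPKM in Mc4r KO and 4.86 ± 0.797 FPKM in WT hearts, and Pik3r4, its regulatory subunit VPS15, averaged 2.78 ± 0.161 and 2.51 ± 0.189 FPKM. Atg14, which directs the kinase to autophagosome formation, and Uvrag, which takes its place in the complex of the endosomes, stood at 2.67 ± 0.231 and 2.73 ± 0.131 FPKM in Mc4r KO hearts and at 2.67 ± 0.356 and 2.84 ± 0.290 FPKM in WT hearts. For Becn1, 43.9% of the exonic length overlaps Cntd1 on the opposite strand, and Cntd1 was at 0.0144 FPKM in Mc4r KO and 0.0204 FPKM in WT hearts. Use of the strand in counting is not given in the sources used here, so reads from the shared stretch cannot be assigned to either gene.

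Among the genes that bring lipid to the growing membrane, Atg2a had an unadjusted p under 0.05 and the other 4 did not. ATG2 proteins are bridges that carry lipids from the endoplasmic reticulum, and ATG9 is the membrane protein that receives them. Atg2a was at 4.18, 5.23 and 4.85 FPKM in WT and at 5.73, 6.80 and 5.56 FPKM in Mc4r KO hearts. The groups did not overlap, though the gap between the highest WT and the lowest Mc4r KO value was small, and the log2 fold change was 0.34 (SE 0.13, adjusted p = 0.201). Its relative Atg2b was at 2.0 ± 0.0296 and 2.09 ± 0.194 FPKM, and Atg9a was at 8.26 ± 1.42 and 7.44 ± 0.772 FPKM. Atg9a shares 31.8% of its exonic length with other genes on its own strand, among them the predicted gene Gm29253, which is listed at 0 in all 6 libraries. The WIPI proteins read PI3P on the membrane. Wipi1 averaged 20.3 ± 1.07 FPKM in Mc4r KO and 23.3 ± 2.23 FPKM in WT hearts (log2 fold change -0.19, adjusted p = 0.314). Wipi2 lay above all WT values in every Mc4r KO library, at 4.41 ± 0.158 against 4.0 ± 0.155 FPKM, and its log2 fold change of 0.14 (adjusted p = 0.453) became -0.05 with the scaling outside the mitochondrial chromosome.

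The 6 genes of the conjugation systems had lower means in Mc4r KO hearts without exception, but by small amounts, and none reached an unadjusted p under 0.05. ATG7 activates ATG12 and the LC3 proteins, ATG10 and ATG3 pass them on, and the product of ATG12, ATG5 and ATG16L1 places LC3 on the membrane. The log2 fold changes ran from -0.30 to -0.02, with a median of -0.11. Once the trend with GC content was removed, Atg3, Atg5, Atg12 and Atg16l1 turned positive, by 0.053 at most. Atg10 differed most, at 12.3, 12.1 and 9.36 FPKM in WT and 8.25, 9.16 and 9.87 FPKM in Mc4r KO hearts. WT replicate 3 lay inside the Mc4r KO range, and the adjusted p was 0.256 with it and 0.0487 without it, where the log2 fold change was -0.43 (adjusted p from 0.0487 to 0.545 over the alternatives). Atg7 was at 2.13 ± 0.164 in Mc4r KO against 2.45 ± 0.258 FPKM in WT hearts, Atg3 at 6.85 ± 0.268 against 7.51 ± 0.608 FPKM, and Atg5 at 6.74 ± 0.413 against 7.14 ± 0.850 FPKM. Atg12 and Atg16l1 were at 10.8 ± 0.836 and 4.03 ± 0.330 FPKM in Mc4r KO hearts and at 11.5 ± 1.09 and 4.08 ± 0.131 FPKM in WT hearts.

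The 4 ATG4 proteases, which trim LC3 and GABARAP before conjugation and free them afterwards, did not move together. Atg4d (ENSMUSG00000002820, GRCm38 chr9:21265293-21277772) was at 4.06, 4.39 and 6.66 FPKM in WT and at 8.41, 10.1 and 8.13 FPKM in Mc4r KO hearts. The groups did not overlap, and WT replicate 3 was the highest WT value. The Mc4r KO mean was 1.76 times the WT mean, with a log2 fold change of 0.83 (SE 0.19, adjusted p = 0.0956). Without WT replicate 3 the log2 fold change was 1.05 and the gene was called (adjusted p = 0.0108). It was also called with array weights (adjusted p = 0.0331) and with limma voom (adjusted p = 0.0257), and its adjusted p ranged from 0.0108 to 0.284 over the 16 alternatives. Exons of Kri1 on the opposite strand cover 19.3% of its exonic length, and Kri1 was at 1.01 ± 0.225 FPKM in Mc4r KO and 0.976 ± 0.0556 FPKM in WT hearts.

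Atg4a and Atg4b, which encode the more active proteases of the family, had groups that did not overlap but in opposite directions. Atg4a was lower, at 4.58, 4.87 and 4.71 FPKM in Mc4r KO and 6.74, 5.02 and 5.58 FPKM in WT hearts (log2 fold change -0.28, adjusted p = 0.265). It shares 51.2% of its 50-base words with other genes, mostly its pseudogene Atg4a-ps, so its count is uncertain. Atg4b was higher, at 3.29, 3.53 and 2.86 FPKM against 2.66, 2.74 and 2.72 FPKM (log2 fold change 0.24, adjusted p = 0.294). Atg4c had the lowest level of all 36 genes, with a mean of 1.57 FPKM over the 6 libraries, and overlapped between the groups. Atg4d made up 26.8%, 31.3% and 41.0% of the summed ATG4 FPKM in WT and 47.0%, 50.6% and 47.3% in Mc4r KO hearts, so its share was higher in every Mc4r KO library. The exact two-sided permutation p was 0.1, the smallest possible with 3 against 3. Because Atg4d was itself higher in every Mc4r KO library, its share is given as a description and not as separate support.

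The LC3 and GABARAP genes, whose products are bound to the autophagosome membrane and recruit cargo to it, included the most abundant of the 36 genes, Map1lc3a, which accounted for nearly all of their difference. Map1lc3a (ENSMUSG00000027602, GRCm38 chr2:155276297-155278073) had a mean level of 329 FPKM over the 6 libraries. It was at 184, 202 and 291 FPKM in WT and at 417, 447 and 437 FPKM in Mc4r KO hearts. The Mc4r KO libraries were close to each other and all lay above WT replicate 3, which in turn lay above the other WT libraries. The Mc4r KO mean was 1.92 times the WT mean, and the log2 fold change of 0.97 (SE 0.17) had the smallest adjusted p of the 36 genes, 0.0599. No other gene overlaps its exons, and none of its 50-base words occurs in another gene.

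The call on Map1lc3a depended on the processing, although its direction did not in any of the 16 alternatives. It was called when the test was limited to genes with a mean of at least 1 FPKM (where 1.3% of genes were), with array weights (adjusted p = 0.0212, beside 2.41% of all genes called), with limma voom (adjusted p = 0.00827) and without WT replicate 3 (log2 fold change 1.17, adjusted p = 0.0035). With the GC content trend removed the log2 fold change was 0.62, under the fold threshold, with an adjusted p of 0.0479. Over all 16 alternatives the log2 fold change ran from 0.62 to 1.17 and the adjusted p from 0.0035 to 0.221.

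The other genes of the family differed far less. Gabarapl2, which acts late in autophagosome formation, was at 16.8, 16.6 and 18.3 FPKM in WT and at 20.3, 20.6 and 20.3 FPKM in Mc4r KO hearts, without overlap. Its log2 fold change was 0.24 (SE 0.078, adjusted p = 0.152), or 0.29 with an adjusted p of 0.048 without WT replicate 3 (0.048 to 0.768 over the alternatives), and 12.2% of its 50-base words occur in other genes such as Gm3724. Map1lc3b, which encodes the LC3B protein usually measured on blots, was at 27.3 ± 1.02 in Mc4r KO and 26.2 ± 0.945 FPKM in WT hearts (log2 fold change 0.06, SE 0.076, adjusted p = 0.680). Gabarap was at 82.2 ± 2.78 and 76.7 ± 5.73 FPKM, and Gabarapl1 at 35.2 ± 0.776 and 31.7 ± 2.60 FPKM. All 5 log2 fold changes were positive on the deposited scale, and 2 of the 5, those of Map1lc3a and Gabarapl2, stayed positive with the scaling outside the mitochondrial chromosome.

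Map1lc3a took a larger share of the family's transcripts in Mc4r KO hearts. The summed FPKM of the 5 genes was 332, 351 and 450 in WT and 579, 611 and 606 in Mc4r KO hearts. Without Map1lc3a the sum was 148, 149 and 159 in WT and 162, 164 and 169 in Mc4r KO hearts, a ratio of means of 1.09 in place of 1.59. The share of Map1lc3a, which does not depend on the scaling between libraries, was 55.4%, 57.6% and 64.7% in WT and 72.0%, 73.1% and 72.1% in Mc4r KO hearts. Its ratio to Map1lc3b was 8.61 ± 2.10 in WT and 15.9 ± 0.842 in Mc4r KO hearts (n = 3 each). Each of these measures was higher in every Mc4r KO library, with an exact two-sided permutation p of 0.1, the smallest possible. All but the sum without Map1lc3a are built on Map1lc3a, which was itself higher in every Mc4r KO library. They are therefore given as a description and not as separate support.

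**Figure D3:**
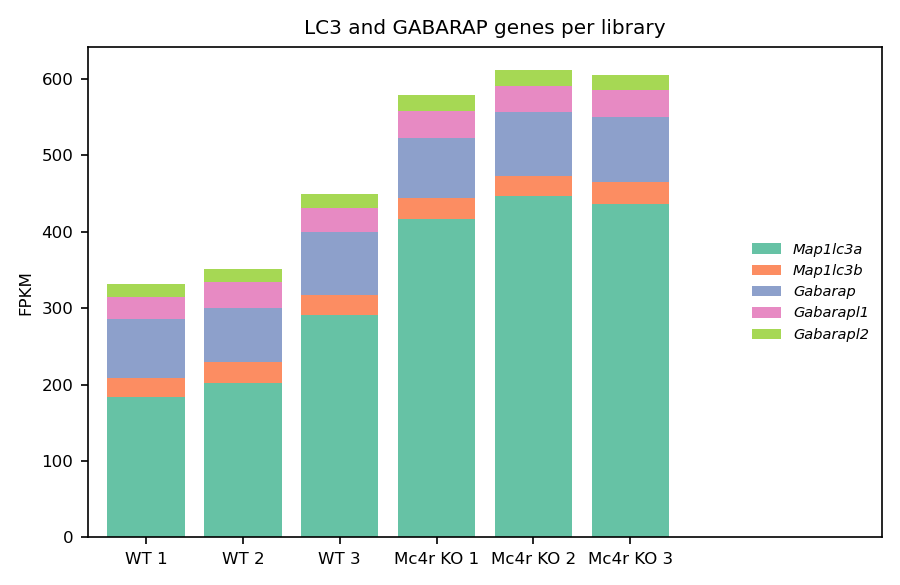
Stacked FPKM of the 5 LC3 and GABARAP genes in each of the 6 libraries, with the vertical axis starting at 0. Map1lc3a is the lowest segment and stands at 184 to 291 FPKM in WT and 417 to 447 FPKM in Mc4r KO libraries, while the other 4 segments together stay between 148 and 169 FPKM.

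The cargo receptors, which tie ubiquitin-marked cargo to LC3, were unremarkable in the test, with 0 of 3 at an unadjusted p under 0.05. Sqstm1, which encodes p62 and was the third most abundant of the 36 genes, was at 87.8, 104 and 91.3 FPKM in WT and at 104, 95.6 and 110 FPKM in Mc4r KO hearts, and the groups overlapped (log2 fold change 0.13, SE 0.10, adjusted p = 0.515). Nbr1 was at 19.1 ± 0.698 and 19.8 ± 1.27 FPKM. Optn, which encodes the mitophagy receptor optineurin, was at 22.7, 26.3 and 15.8 FPKM in WT and at 17.6, 19.4 and 16.4 FPKM in Mc4r KO hearts. WT replicate 3 was the lowest of all 6 libraries, and the log2 fold change was -0.25 with it (adjusted p = 0.487) and -0.46 without it (adjusted p = 0.0497, range over the alternatives 0.0497 to 0.816).

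At the lysosome, every Mc4r KO library had less Lamp2 than every WT library, without passing the call, and the groups overlapped for Lamp1. Both encode heavily glycosylated proteins that line the lysosomal membrane, and LAMP2 is also needed for fusion with autophagosomes. Lamp2 (ENSMUSG00000016534, GRCm38 chrX:38401357-38456454) was at 23.3, 21 and 19.8 FPKM in WT and at 15.8, 15.7 and 17.1 FPKM in Mc4r KO hearts, without overlap. The means were 16.2 ± 0.785 and 21.4 ± 1.74 FPKM, a log2 fold change of -0.40 (SE 0.091, adjusted p = 0.0929). Without WT replicate 3 it was -0.45 (adjusted p = 0.0295, range over the alternatives 0.0295 to 0.282), and with the GC content trend removed it was -0.19 (adjusted p = 0.213). Lamp1 was at 129 ± 6.09 FPKM in Mc4r KO and 133 ± 13.7 FPKM in WT hearts (log2 fold change -0.05, adjusted p = 0.838). The ratio of Lamp1 to Lamp2 was 5.95, 6.86 and 5.95 in WT and 7.83, 8.64 and 7.49 in Mc4r KO hearts, higher in every Mc4r KO library.

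Tfeb, which encodes the transcription factor that activates many lysosomal and autophagy genes, was at 3.60, 4.45 and 4.63 FPKM in WT and at 5.56, 5.36 and 5.38 FPKM in Mc4r KO hearts. The groups did not overlap, and the log2 fold change was 0.36 (SE 0.12, adjusted p = 0.156). The fold change was 0.17 with the scaling outside the mitochondrial chromosome and 0.014 (adjusted p = 0.955) with the GC content trend removed. TFEB protein is controlled largely by its location in the cell, which these data do not measure.

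TFEB binds an E-box, the letters CACGTG, and prefers the longer form TCACGTGA that is called the CLEAR core and contains the E-box. Both are palindromes, so a match counts on either strand. Promoter windows of 300 bases, from 250 bases before to 50 after the annotated start, were taken from RefSeq (GRCm38.p6) for 30 of the 36 genes. Map1lc3a, Rb1cc1, Becn1, Pik3c3, Atg12 and Atg16l1 had no window. The E-box was in the window of 5 of these 30 genes (Lamp1, Atg3, Atg5, Atg7 and Atg14), or 16.7%, and in 8.09% of the 27025 genes with a window. The CLEAR core was in 1 of the 30 (3.33%), Atg3, and in 1.12% of all. A RefSeq start can lie within a gene as positioned in the deposited data. The only Atg7 window, at chr6:114670846-114671145 (plus strand), lies inside the gene, which begins at 114643097. That of Atg14, at chr14:47568385-47568684 (minus strand), also lies inside the gene, whose upstream end is at 47570649. None of the 5 genes with an E-box had an unadjusted p under 0.05, and their log2 fold changes were -0.05, -0.13, -0.08, -0.19 and 0.0054 in the order given. The windows of the 2 genes with more than 1 E-box are shown first, followed by those of Atg4d and Lamp2, which had the largest positive and the largest negative log2 fold change among the genes with a window. They are written 5′ to 3′ on the strand of the gene with each E-box in capitals. The coordinates in GRCm38.p6 are chr8:13158911-13159210 (plus strand) for Lamp1, chr16:45158579-45158878 (plus) for Atg3, chr9:21265035-21265334 (plus) for Atg4d and chrX:38456411-38456710 (minus) for Lamp2.
Lamp1: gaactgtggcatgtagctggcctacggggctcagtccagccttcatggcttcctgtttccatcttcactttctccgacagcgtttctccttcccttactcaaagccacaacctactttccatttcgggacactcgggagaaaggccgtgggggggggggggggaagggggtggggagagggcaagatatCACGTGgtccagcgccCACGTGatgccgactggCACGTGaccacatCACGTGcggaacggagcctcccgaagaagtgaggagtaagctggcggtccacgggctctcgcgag
Atg3: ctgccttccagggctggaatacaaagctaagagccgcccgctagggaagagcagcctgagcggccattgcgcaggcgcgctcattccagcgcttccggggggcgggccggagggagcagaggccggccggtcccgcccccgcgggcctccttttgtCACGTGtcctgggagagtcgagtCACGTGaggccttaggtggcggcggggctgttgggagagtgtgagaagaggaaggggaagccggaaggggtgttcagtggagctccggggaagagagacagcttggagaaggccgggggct
Atg4d: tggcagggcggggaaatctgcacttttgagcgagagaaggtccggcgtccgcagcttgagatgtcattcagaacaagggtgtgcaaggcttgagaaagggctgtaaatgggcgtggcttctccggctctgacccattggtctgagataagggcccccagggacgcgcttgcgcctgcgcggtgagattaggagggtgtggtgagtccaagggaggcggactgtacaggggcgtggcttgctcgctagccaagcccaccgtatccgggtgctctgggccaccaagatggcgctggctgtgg
Lamp2: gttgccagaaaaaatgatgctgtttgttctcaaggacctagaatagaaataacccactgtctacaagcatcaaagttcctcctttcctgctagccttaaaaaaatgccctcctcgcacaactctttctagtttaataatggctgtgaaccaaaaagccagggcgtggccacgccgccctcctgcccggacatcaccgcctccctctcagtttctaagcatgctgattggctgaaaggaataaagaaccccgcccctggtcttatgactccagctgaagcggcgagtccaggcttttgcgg
Lamp1 holds 4 E-boxes within a short stretch before its start, Atg3 holds 2, of which the one nearer the start lies in the CLEAR core, and the windows of Atg4d and Lamp2 hold none. A match describes these letters alone and says nothing of binding.

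The differences went along with the base composition of the transcripts. Across the 36 genes the log2 fold change correlated with the GC content of the longest transcript at a Spearman coefficient of 0.680 and a Pearson coefficient of 0.704, as a description across genes that share the same 6 libraries. Across 11288 genes with a mean of at least 1 FPKM the coefficients were 0.417 and 0.342. The 7 genes with a higher level had GC contents of 45.3% to 63.2% (median 58.0%), the 2 with a lower level had 38.7% and 39.1%, and the other 27 had 40.1% to 58.0% (median 50.3%). The libraries differed in the same property. The GC content weighted by reads, mitochondrial reads included, was 45.6%, 46.1% and 47.2% in WT replicates 1 to 3. In the Mc4r KO libraries it was 47.3% to 47.7%. The difference was smaller without the reads on the mitochondrial chromosome. The values were then 49.6%, 49.9% and 50.3% in WT replicates 1 to 3 and 50.5% in each Mc4r KO library. Once the trend of each library with GC content was removed, 5 genes were higher and 3 lower at an unadjusted p under 0.05, beside 10.1% and 9.53% of all genes, and none was called. The log2 fold changes were then 0.62 for Map1lc3a, 0.69 for Atg4d, 0.36 for Atg13, 0.31 for Gabarapl2, 0.18 for Atg101, 0.075 for Atg2a, 0.014 for Tfeb, -0.34 for Rb1cc1 and -0.19 for Lamp2. All but that of Gabarapl2 were closer to zero than on the deposited values. The part of GC content in the deposited differences was not tested further.

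**Figure D4:**
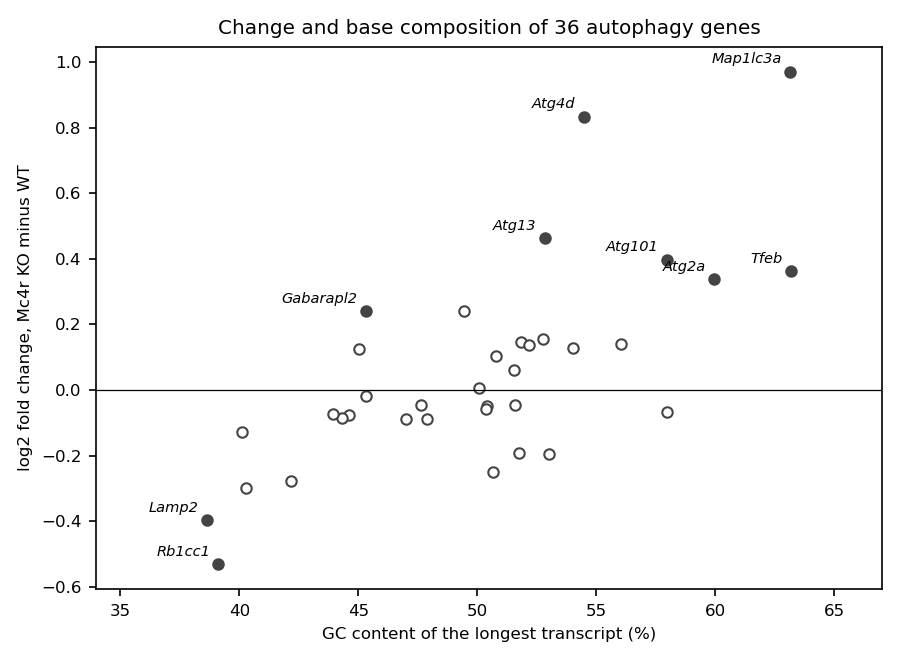
Log2 fold change between Mc4r KO and WT hearts against the GC content in percent of the longest GENCODE transcript, 1 point per autophagy gene (36 in all). Filled, named points have an unadjusted p under 0.05. Lamp2 and Rb1cc1 lie at 38.7% and 39.1% GC, and the named genes with a higher level lie between 45.3% and 63.2%.

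The share of mitochondrial transcripts moved with the groups too. Transcripts of the mitochondrial chromosome took 59.3%, 57.4% and 47.1% of the summed FPKM in WT replicates 1 to 3 and 43.6%, 46.6% and 43.0% in the Mc4r KO libraries. Dividing the FPKM by their sum outside that chromosome lowered the log2 fold change of the median gene in the whole table, with a shift of -0.18. On that scale 8 of the 36 autophagy genes were positive and their median was -0.22. Relative to the median of all genes, 17 of the 36 lay above it under both scalings. The 9 genes with an unadjusted p under 0.05 had the same sign in all 16 alternatives, and 18 of the 36 genes did. Among the 9, the smallest log2 fold changes left by the scaling outside the mitochondrial chromosome were those of Gabarapl2 (0.05) and Atg2a (0.15), and Map1lc3a was at 0.77 and Atg4d at 0.64.

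**Figure D5:**
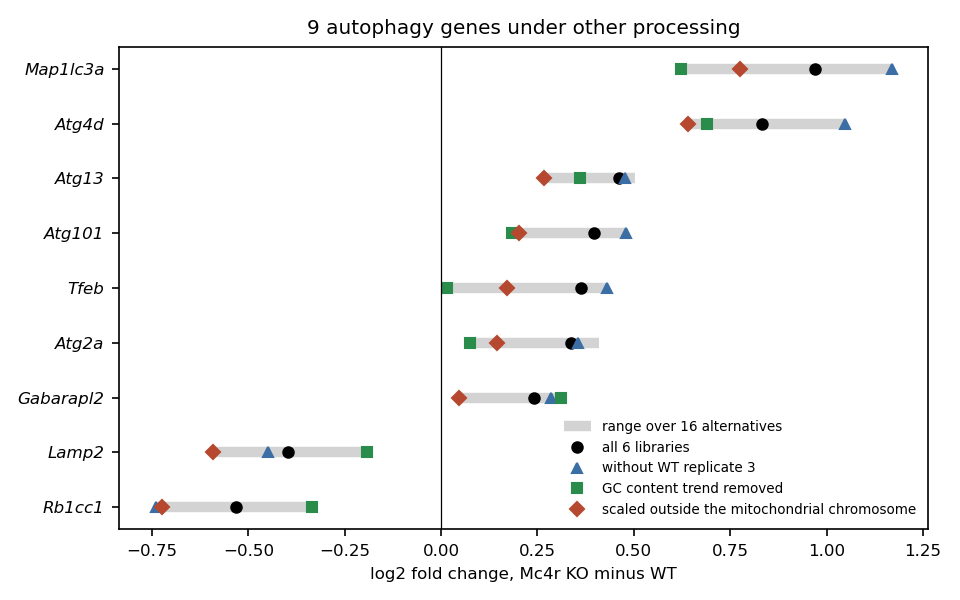
Log2 fold change of the 9 autophagy genes with an unadjusted p under 0.05 with all 6 libraries (black circle), without WT replicate 3 (blue triangle), with the GC content trend removed (green square) and with scaling outside the mitochondrial chromosome (red diamond). The grey bars span all 16 alternatives, and no bar crosses zero. Tfeb comes closest, with 0.014 after removal of the GC content trend.

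Markers of other cells also differed between the libraries. The 5 fibroblast markers summed to 154 to 159 FPKM in WT and 118 to 129 FPKM in Mc4r KO hearts, the 5 erythrocyte markers to 859 to 6344 and 620 to 1651 FPKM, the 4 B cell markers to 1.19 to 2.80 and 0.42 to 0.59 FPKM, and the 4 atrial markers to 28.6 to 747 and 6.29 to 136 FPKM. Dcn made up most of the fibroblast sum, at 82.4 ± 5.03 FPKM in Mc4r KO and 119 ± 8.94 FPKM in WT hearts. The log2 fold changes of 2 of the 5 fibroblast markers were positive, among them Col1a1 (0.44, adjusted p = 0.371). The cardiomyocyte sums given above, and those of the fibroblast and B cell markers, did not overlap between the groups. Actc1 was the largest part of the cardiomyocyte sum, at 7539 ± 666 FPKM in Mc4r KO and 5178 ± 528 FPKM in WT hearts. Of the 8 cardiomyocyte markers 6 had positive log2 fold changes and 4 had groups without overlap, while Pln was at 455 ± 18.7 and 581 ± 120 FPKM. Erythrocyte, atrial, endothelial, macrophage, smooth muscle, adipocyte and skeletal muscle sums overlapped. Each of the 4 atrial markers was highest in WT replicate 3, which had the atrial sum of 747 FPKM. The median atrial sum was 95.2 FPKM in WT and 43.7 FPKM in Mc4r KO hearts. Whether atrial tissue in WT replicate 3 had a part in the results that depend on this library was not tested. At an unadjusted p under 0.05, 2 of 5 fibroblast, 2 of 5 macrophage, 3 of 5 erythrocyte and 2 of 4 B cell markers were lower in Mc4r KO hearts. Of the macrophage markers 2 had positive log2 fold changes, and the median macrophage sum was 52.9 FPKM in WT and 72.7 FPKM in Mc4r KO hearts. In the same count 2 of 8 cardiomyocyte, 1 of 4 endothelial and 1 of 3 tested skeletal muscle markers were higher. No atrial, smooth muscle or adipocyte marker passed. The backgrounds were 8.83% of all genes lower and 12% higher. Up to 2 adipocyte, 2 skeletal muscle and 1 atrial marker were at 0 in a library. The part of these cells in the autophagy gene levels was not tested.

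In the genes around this machinery no gene was called either, although 4 of the other autophagy genes and 2 of the MTORC1 genes had an absolute log2 fold change above 0.75. Of 40 other autophagy genes tested, 10 were higher and 6 lower in Mc4r KO hearts at an unadjusted p under 0.05, with a median log2 fold change of -0.04. Vmp1, which encodes a protein of the endoplasmic reticulum needed for autophagosome formation, was at 15.6 ± 1.47 FPKM in Mc4r KO and 9.88 ± 0.769 FPKM in WT hearts (log2 fold change 0.65, adjusted p = 0.0535). Trp53inp2, whose product DOR binds LC3 and leads it out of the nucleus, was at 185 ± 19.5 and 110 ± 15.5 FPKM (0.76, adjusted p = 0.0579). Both had groups without overlap and smaller adjusted p-values than any of the 36 genes.

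Of the 30 genes of MTORC1, the kinase complex that inhibits ULK1 and TFEB in the fed state, and its inputs, 7 were higher and 4 lower, with a median of 0.08. Rragd, which encodes the RagD GTPase that brings MTORC1 to the lysosome, was at 23.3, 22.8 and 23.0 FPKM in WT and at 15.4, 14.4 and 17.4 FPKM in Mc4r KO hearts. The WT values were tight, WT replicate 3 included, and the groups did not overlap (log2 fold change -0.55, SE 0.092, adjusted p = 0.0566). Deptor, an inhibitor within MTORC1, was at 2.20 ± 0.127 and 3.27 ± 0.166 FPKM (-0.55, adjusted p = 0.0744), and Lamtor4, a subunit of the lysosomal anchor of MTORC1, was at 23.1 ± 1.38 and 15.7 ± 3.06 FPKM (0.56, adjusted p = 0.104).

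Of the 6 tested genes of the MiT/TFE and FoxO factors, Tfeb and Foxo4 were higher at an unadjusted p under 0.05 and none was lower. Foxo4 was at 17.5 ± 0.638 FPKM in Mc4r KO and 15.3 ± 0.806 FPKM in WT hearts (log2 fold change 0.20, adjusted p = 0.231). The 37 genes of lysosomal hydrolases and membrane proteins had 6 higher and 6 lower, with a median of 0.12. Ctsd, the main aspartic protease of the lysosome, was at 229 ± 19.3 and 170 ± 3.91 FPKM (0.42, adjusted p = 0.0871), and Ctsf, a cysteine protease, was at 21.7 ± 0.759 and 16.7 ± 1.09 FPKM (0.38, adjusted p = 0.0871). The 17 genes of the V-ATPase, the proton pump that acidifies the lysosome, had 6 higher and 0 lower, with a median of 0.18, and 8 had every Mc4r KO library above every WT library. Atp6v0a2 had the smallest adjusted p among them (log2 fold change 0.50, adjusted p = 0.0756). The backgrounds for the counts at this p are the 12% of all genes that were higher and the 8.83% that were lower. Among genes with a mean of at least 1 FPKM they are 17.1% and 10.8%. For the 8 V-ATPase genes without overlap the background is 14.1% of all genes, or 19.6% of those with a mean of at least 1 FPKM. Scaling outside the mitochondrial chromosome shifted the median of all genes by -0.18, and whether the V-ATPase median of 0.18 holds under it was not tested. The other lists were not tested under that scaling either.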

How the data were processed

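The authors enriched polyadenylated RNA, sequenced paired ends, filtered the reads, aligned them with HISAT2 (version 2.0.5 and build mm10 in the submitters' processing notes) and counted them on genes with featureCounts. The authors deposited FPKM per gene and library, together with gene lengths and positions. The strand setting and annotation release are not given in the sources used here, and 99.8% of the identifiers were found in GENCODE M21. Multiplying FPKM by gene length and dividing by the worth of 1 read in that library gave whole reads for 100% of the values. The tolerance was 0.01 of a read, or 0.01% of the value where that was larger. The 36 genes and the other gene lists were chosen with earlier results of these data known.

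Because FPKM are not counts, limma 3.58.1 (R 4.3.3) was fitted to log2(FPKM + 0.1) in the 6 libraries, without covariates and with a trended prior variance, over the 18035 genes whose mean was at least 0.1 FPKM. A fold change on this scale understates that of low genes. P-values are two-sided, adjusted p-values are Benjamini-Hochberg over all genes tested, and p-values measure the spread between 3 mice per group. Genes were called at adjusted p below 0.05 if the log2 fold change also exceeded 0.75 in size. Sums and ratios were compared by the exact permutation test. All 36 genes are named, with at most 3 others per list, by smallest p. A result this rule would name is not reported here. The script was tested on simulated data. Alternatives were pseudocounts of 1 and 0.01, no filter, a mean of at least 1 FPKM, scaling outside the mitochondrial chromosome, quantile normalization, array weights, limma voom on the recovered reads, the replicate number as a block, removal of the GC content trend (lowess, span 0.3) and each library left out. Figures were drawn with Python 3.11.15, pandas 2.3.3 and matplotlib 3.10.9. Floors cover counting error only.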

Additional observations from a re-analysis of the deposited data

How the results depend on the processing

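The number of autophagy genes called was 0 with all 6 libraries. It was 1 with a mean of at least 1 FPKM, 2 with array weights, 2 with limma voom and between 0 and 2 when each library was left out, the 2 being the fit without WT replicate 3. Over all genes the count of 83 became 44 with a pseudocount of 1, 22 without a filter, 147 with a mean of at least 1 FPKM, 41 with scaling outside the mitochondrial chromosome, 49 with quantile normalization, 435 with array weights, 317 with limma voom and 11 with the replicate block, and it ran from 7 to 726 when each library was left out. Of the 83, 57 were higher and 26 lower in Mc4r KO hearts, against 16 and 25 with scaling outside the mitochondrial chromosome. The number of autophagy genes whose groups did not overlap ran from 12 to 24 when each library was left out, and their median log2 fold change from -0.046 to 0.020. That median was -0.22 with scaling outside the mitochondrial chromosome. The cause of these changes was not tested. Replicate numbers are shared by the groups, and the sample titles do not say whether they pair the mice. The deviations of same-numbered libraries correlated at -0.14, 0.0074 and -0.08, and 0 of 3 numbers matched best with their own. This gave no sign of pairing, but with 3 libraries per group it cannot exclude it. The replicate block left 0 autophagy genes called and 9 at an unadjusted p under 0.05. No autophagy gene with an unadjusted p under 0.05 turned its sign in any alternative. With 3 mice per group and as few as 74 reads on a gene, smaller differences in weakly transcribed genes such as Atg4c were not detectable.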
